A study of Mus musculus with 3 samples.

Results

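The transcripts described here are those of 10 mouse genes, the 5 NF-kB subunits Rel, Rela, Relb, Nfkb1 and Nfkb2 and the 5 inhibitor or inhibitor-like genes Nfkbia, Nfkbib, Nfkbie, Nfkbid and Nfkbiz, picked by gene symbol from 33605 symbols. All 10 were found, each on a row of its own, and all 10 passed the filter of a mean of at least 1 RPKM over the 3 libraries. RPKM is a read count scaled to gene length and library size. The cells were CD43- B cells from spleens of C57BL/6 mice, cultured for 3 days in RPMI1640 with LPS, a bacterial ligand of Toll-like receptors, and IL4, a T cell cytokine. During those 3 days they also received JQ1+ at 80 nM, flavopiridol at 30 nM, or DMSO as the control. Every culture therefore carried the LPS and IL4 stimulus, and no unstimulated culture was analysed here.

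JQ1 is a small molecule that displaces BET bromodomain proteins from acetylated chromatin, and flavopiridol is a kinase inhibitor that acts on Cdk9, which RNA polymerase needs to leave its pause near the promoter. There was 1 library for each treatment, so no difference below has a replicate check, no p-value is given, and drug effects and differences between single cultures cannot be told apart. The number of mice, and whether cultures shared mice, is not stated by the labels. In all, counts summed to between 50184508 and 59786847 a library, and the members had between 953 and 70265 counts each. All 9 B cell markers checked were present in every library, with a summed level of 13399 RPKM in JQ1+, 9440 in flavopiridol and 11883 in DMSO. Of the 8 T cell markers, 2 to 3 reached 1 RPKM in a library and Thy1 made up most of their sum, which was 186 RPKM in JQ1+, 212 in flavopiridol and 290 in DMSO. Of the 6 dendritic cell markers, 3 to 4 reached 1 RPKM, and their sum was 10.7 RPKM in JQ1+, 35.1 in flavopiridol and 90.03 in DMSO, of which Batf3 alone made up 55.9, with Siglech at 0 in flavopiridol and in DMSO. The myeloid list summed to at most 14.0 RPKM, with S100a8 and S100a9 at 0 in all 3 libraries. The cytotoxic and erythroid lists stayed below 3 RPKM in sum, and the stromal list, nearly all of it Pecam1, came to 5.22 RPKM in JQ1+, 11.9 in flavopiridol and 21.8 in DMSO. The part of other cells in the values below was not tested. In such bulk RNA, fewer cells of a type and less RNA per cell cannot be told apart.

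NF-kB is a family of dimeric transcription factors that B cells use to respond to Toll-like receptors, CD40 and the antigen receptor. Rela, Rel and Relb encode subunits with a transactivation domain, whereas Nfkb1 and Nfkb2 encode the precursors p105 and p100, which are processed to the DNA-binding subunits p50 and p52. The classical inhibitors IkBa (Nfkbia), IkBb (Nfkbib) and IkBe (Nfkbie) hold dimers in the cytoplasm until IkB kinase marks them for destruction. IkBNS (Nfkbid) and IkBz (Nfkbiz) are atypical members that act in the nucleus on NF-kB bound to DNA. Several of these genes are themselves NF-kB targets, so that the pathway feeds back on its own inhibitors.

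Because of that feedback, the bases just upstream of the members' start sites were read for kB sites. RefSeq promoter windows on the GRCm38.p6 assembly, a later build than the mm9 used for the counts, were matched by symbol for 7 of the 10 members (Rel, Rela, Nfkb2, Nfkbia, Nfkbib, Nfkbie and Nfkbid), and Relb, Nfkb1 and Nfkbiz had no entry. The motif searched, on both strands, was the 10-base kB consensus of GGG, a purine, any 2 bases, 2 pyrimidines and CC, and matches that overlap were each counted. In the 250 bases upstream of a start site, 5 of the 7 members held at least 1 match. Over windows, 7 of the members' 11 held one, against 7.25% of all 32817 windows and 11.0% of the 13146 windows within the members' range of GC content. Of the 8666 genes that had a window and passed the filter on RPKM, 10.3% had a match in any window. Nfkb2 and Nfkbid have 3 windows each, which gives them more chances of a match, and a match is a string of letters rather than a shown binding site. The windows below are shown because they carry the matches nearest to the start site, 5′ to 3′ on the gene's own strand, with the matched bases in capitals.
Nfkb2, chr19:46304487-46304736, plus strand: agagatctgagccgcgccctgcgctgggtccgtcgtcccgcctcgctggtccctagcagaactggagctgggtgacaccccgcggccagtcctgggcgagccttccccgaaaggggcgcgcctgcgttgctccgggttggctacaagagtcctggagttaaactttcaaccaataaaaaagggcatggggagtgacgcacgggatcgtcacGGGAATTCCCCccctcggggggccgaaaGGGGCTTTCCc
Rel, chr11:23770970-23771219, minus strand: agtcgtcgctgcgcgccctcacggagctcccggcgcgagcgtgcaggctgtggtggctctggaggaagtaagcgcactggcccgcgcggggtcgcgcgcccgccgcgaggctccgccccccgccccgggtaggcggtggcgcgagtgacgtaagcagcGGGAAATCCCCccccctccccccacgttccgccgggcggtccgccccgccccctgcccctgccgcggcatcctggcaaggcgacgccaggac
Nfkbia, chr12:55492648-55492897, minus strand: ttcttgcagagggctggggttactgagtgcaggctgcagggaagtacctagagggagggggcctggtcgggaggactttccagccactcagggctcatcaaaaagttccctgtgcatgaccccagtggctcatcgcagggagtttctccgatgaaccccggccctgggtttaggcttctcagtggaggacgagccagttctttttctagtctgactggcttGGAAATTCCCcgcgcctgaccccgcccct
Nfkbie, chr17:45555450-45555699, plus strand: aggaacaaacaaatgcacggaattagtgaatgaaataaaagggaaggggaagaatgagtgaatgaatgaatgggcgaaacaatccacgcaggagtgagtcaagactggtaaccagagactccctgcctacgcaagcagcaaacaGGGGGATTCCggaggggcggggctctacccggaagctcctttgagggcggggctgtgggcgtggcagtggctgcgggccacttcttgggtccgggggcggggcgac
Nfkbid, chr7:30422156-30422405, plus strand: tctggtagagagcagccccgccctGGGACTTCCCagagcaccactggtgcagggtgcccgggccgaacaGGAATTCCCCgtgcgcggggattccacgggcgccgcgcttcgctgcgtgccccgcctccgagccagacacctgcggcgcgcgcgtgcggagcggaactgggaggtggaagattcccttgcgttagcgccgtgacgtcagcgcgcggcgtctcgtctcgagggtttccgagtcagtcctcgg
The Nfkb2 window held GGGAATTCCC, which matches on both strands, at -39 to -30 from the start site, the overlapping GGAATTCCCC at -38 to -29, and GGGGCTTTCC at -11 to -2. Nfkbia had GGAAATTCCC at -29 to -20, and Rel had GGGAAATCCC at -92 to -83 with GGAAATCCCC overlapping it. Nfkbie had GGGGGATTCC at -106 to -97. Nfkbid had GGGACTTCCC at -226 to -217 and GGAATTCCCC at -181 to -172. The windows of Rela and Nfkbib held no match, which says only that these letters are not in those 250 bases. Matches were found in the subunit genes Rel and Nfkb2 and in the inhibitor genes Nfkbia, Nfkbie and Nfkbid. In the JQ1+ library, described below, transcripts of these subunits lay below DMSO and those of these inhibitors above it, Nfkbia by little. Rela and Nfkbib, without a match, lay below it too. Any link between a match and a transcript level was not tested.

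With LPS, IL4 and DMSO the family was well expressed, and Nfkb1 had the highest deposited RPKM. In the DMSO library the members ranged from 21.1 RPKM for Nfkbid to 696 RPKM for Nfkb1. The order of RPKM levels in DMSO, from the top, was Nfkb1, Nfkbia, Nfkb2, Rel, Nfkbie, Rela, Nfkbib, Relb, Nfkbiz and Nfkbid. Nfkb1, Nfkbia and Nfkb2 kept the first 3 places in JQ1+ and in flavopiridol, and Nfkbid was the lowest in each library. By the deposited RPKM Nfkbie took the fourth place with both drugs. Between neighbours in the order, counting intervals of the ratio included 1 for Nfkbiz and Nfkbib in JQ1+ (0.938 to 1.14) and for Nfkbie and Rela in DMSO (0.956 to 1.11), and for no neighbours in flavopiridol. Levels between genes depend on the gene length behind the deposited RPKM. For Nfkb1 that length was 4794 bases, against 12061 bases of exon in the later annotation GENCODE M21, and with the M21 lengths Nfkbia, not Nfkb1, had the highest level in JQ1+ and in flavopiridol. The plain RPKM ratio of a gene between libraries does not depend on its length. Log2 differences below, with 1 added to each RPKM, do so through that added 1.

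**Figure D1:**
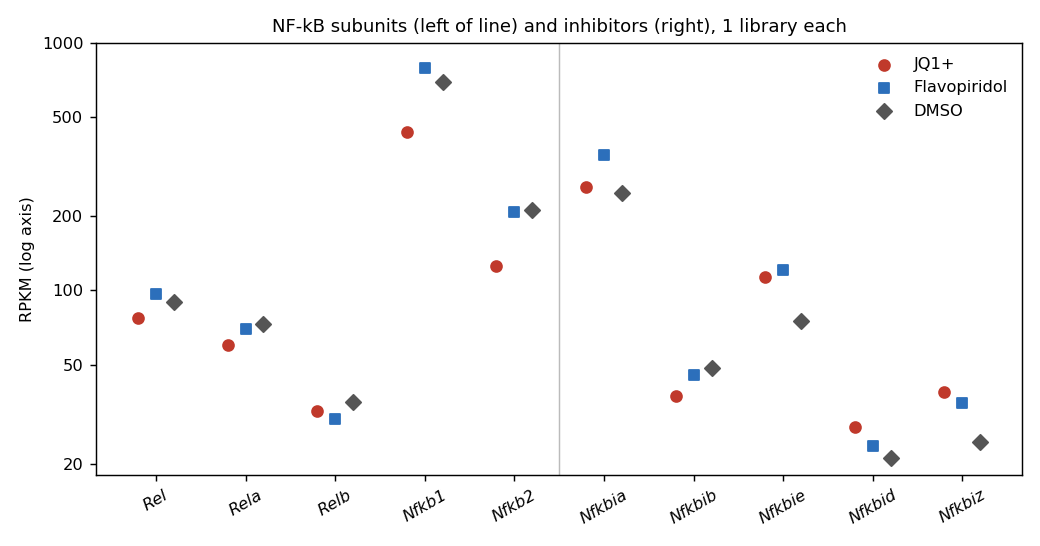
RPKM of the 10 members on a log axis, with 1 point per library (JQ1+ circles, flavopiridol squares, DMSO diamonds), subunits left of the vertical line and inhibitors right of it. The Nfkb1 points lie at 436, 794 and 696 RPKM, and the JQ1+ circle is the lowest of the 3 for 4 of the 5 subunits and for Nfkbib.

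No member passed the 2-fold rule with JQ1+. After 1 was added to each RPKM value, a log2 difference of 1 or more in either direction was called, which 0 of 10 members reached, where 7.27% of the 14790 genes past the filter did. All 5 subunits lay below DMSO, as did 59.7% of all genes, with a median log2 difference of -0.27 and a range of -0.75 to -0.11. Of the inhibitors 4 lay above DMSO, as did 40.2% of all genes, and 1 below, with a median of 0.39 and a range of -0.35 to 0.65. The median of all genes was -0.08. The libraries were also rescaled by the median of ratios, which brought that median to 0. The subunits were then at -0.66 (Nfkb2), -0.58 (Nfkb1), -0.18 (Rela), -0.13 (Rel) and -0.02 (Relb). Rescaled inhibitors were at -0.27 (Nfkbib), 0.18 (Nfkbia), 0.48 (Nfkbid), 0.67 (Nfkbie) and 0.74 (Nfkbiz). Ratios in plain RPKM are given below with 95% intervals for counting error alone, which leave out variation from culture to culture. These intervals lay wholly below 1 for 5 members, where 34.3% of all genes did so, and wholly above 1 for 4, where 18.2% did. Here and in the comparisons below, such intervals narrow with read depth. The background reaches down to a mean of 1 RPKM and was not matched to the members for depth. An excess among the members therefore cannot be read from these shares.

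With JQ1+ the precursor genes were the furthest below DMSO. Nfkb2 (ENSMUSG00000025225), the p100 precursor of the alternative pathway, stood at 125 RPKM in JQ1+ and 207 in flavopiridol, against 211 in DMSO. Only the JQ1+ library was low, at 0.592 times the DMSO value (interval 0.565 to 0.620), while flavopiridol was at 0.982 times (interval 0.942 to 1.02). In size, the Nfkb2 log2 difference with JQ1+ of -0.75 was larger than that of 90.5% of the 11367 genes whose mean reached 5 RPKM. Nfkb1 (ENSMUSG00000028163), the p105 precursor, stood at 436 RPKM in JQ1+ and 794 in flavopiridol, against 696 in DMSO. As deposited, the 2 drugs lay on either side of DMSO, JQ1+ at 0.626 times (interval 0.613 to 0.639) and flavopiridol at 1.14 times (interval 1.12 to 1.16). After rescaling by the median of ratios, the Nfkb1 log2 difference with flavopiridol was 0.05, close to DMSO. Nfkb1 was the deepest counted member, which makes its intervals the narrowest. In GENCODE M21, exons of Nfkb2 share 299 bases with the opposite-strand gene Psd, whose own level was at most 9.92 RPKM, and 531 bases with an opposite-strand non-coding gene, and the use of strand in counting is not stated by the labels.

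The subunits with a transactivation domain differed less from DMSO with JQ1+. Rel (ENSMUSG00000020275), which encodes c-Rel, the subunit most tied to B cell proliferation, stood at 77.2 RPKM in JQ1+ and 96.9 in flavopiridol, against 90.02 in DMSO. Its ratio to DMSO was 0.857 in JQ1+ (interval 0.800 to 0.918) and 1.08 in flavopiridol (interval 1.01 to 1.15). Rela (ENSMUSG00000024927), which encodes p65, stood at 60.2 RPKM in JQ1+ and 69.8 in flavopiridol, against 72.9 in DMSO. For Rela the JQ1+ ratio was 0.825 (interval 0.763 to 0.893), and the flavopiridol interval, 0.884 to 1.04, included 1. Relb (ENSMUSG00000002983), the usual partner of p52, stood at 32.7 RPKM in JQ1+ and 30.3 in flavopiridol, against 35.3 in DMSO. Relb was the one member whose lowest value came from the flavopiridol library, at 0.856 times DMSO (interval 0.776 to 0.944), and its JQ1+ interval, 0.843 to 1.01, included 1.

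Among the classical inhibitors, Nfkbie stood apart from Nfkbib. Nfkbie (ENSMUSG00000023947) stood at 113 RPKM in JQ1+ and 121 in flavopiridol, against 75.1 in DMSO. Both drug libraries were high, at 1.502 times DMSO in JQ1+ (interval 1.40 to 1.61) and 1.61 times in flavopiridol (interval 1.498 to 1.73). Nfkbib (ENSMUSG00000030595) stood at 37.7 RPKM in JQ1+ and 45.6 in flavopiridol, against 48.4 in DMSO. It was the only inhibitor below DMSO in these libraries, at 0.778 times in JQ1+ (interval 0.697 to 0.868), and its flavopiridol interval, 0.845 to 1.05, included 1. In GENCODE M21, 14.5% of the Nfkbib exon bases are shared with Ccer2 and 1.94% with Sirt2, both on the opposite strand. Nfkbia (ENSMUSG00000021025), the inhibitor that is rapidly degraded and made again in each NF-kB response, stood at 263 RPKM in JQ1+ and 351 in flavopiridol, against 246 in DMSO. Flavopiridol was the high library for Nfkbia, at 1.42 times DMSO (interval 1.35 to 1.498), and JQ1+ was at 1.07 times (interval 1.01 to 1.12).

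Both atypical inhibitors had their highest value in JQ1+ and their lowest in DMSO. Nfkbiz (ENSMUSG00000035356), which in macrophages is needed for secondary response genes such as Il6, stood at 39.0 RPKM in JQ1+ and 35.2 in flavopiridol, against 24.4 in DMSO. The ratios to DMSO were 1.596 in JQ1+ (interval 1.47 to 1.74) and 1.44 in flavopiridol (interval 1.32 to 1.58). Nfkbid (ENSMUSG00000036931), which in mice is needed for B cell responses to LPS, stood at 28.1 RPKM in JQ1+ and 23.7 in flavopiridol, against 21.1 in DMSO. Its JQ1+ ratio was 1.33 (interval 1.16 to 1.53), and the flavopiridol interval, 0.962 to 1.30, included 1.

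**Figure D2:**
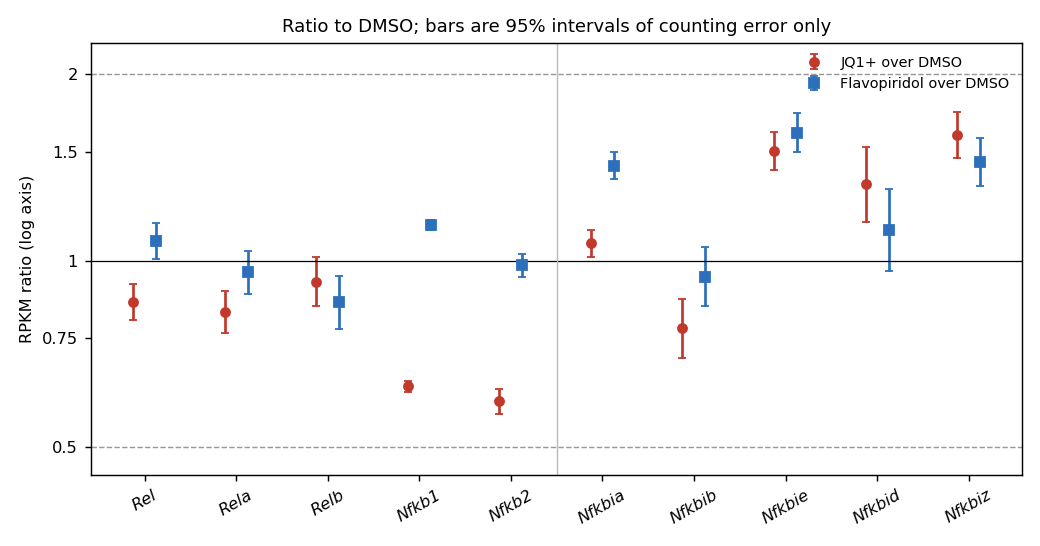
RPKM ratio to DMSO of each member on a log axis, JQ1+ as circles and flavopiridol as squares, with bars for the 95% counting interval and dashed lines at 2-fold. All points lie inside the dashed lines, JQ1+ is below 1 for the 5 subunits and Nfkbib, and the points furthest from 1 are those of Nfkb2 at 0.592 (JQ1+) and Nfkbie at 1.61 (flavopiridol).

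With flavopiridol, likewise, 0 of 10 members passed 2-fold, where 6.43% of all genes did. As deposited, the subunits stayed close to DMSO, with a median log2 difference of -0.03 and a range of -0.22 to 0.19. The inhibitors had a median of 0.51 and a range of -0.08 to 0.68, and 4 of 5 lay above DMSO, as did 63.7% of all genes. Counting intervals lay above 1 for 5 members (Rel, Nfkb1, Nfkbia, Nfkbie and Nfkbiz), where 38.2% of all genes did so, and below 1 for Relb, where 17.9% did. Part of this is a shift shared by all genes, whose median was 0.13. After the libraries were rescaled by the median of ratios, which took that shift out, Nfkbie was at 0.54 and Nfkbia and Nfkbiz at 0.37 each. Relb was then at -0.36, Rela at -0.20 and Nfkb2 at -0.17, while Nfkb1 was at 0.05 and Rel changed sign to -0.04. Nfkbib was at -0.22 and Nfkbid at 0.02.

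The drugs were also set side by side, although they were used at different doses. In JQ1+ against flavopiridol 0 of 10 members passed 2-fold, where 8.92% of all genes did. The widest differences were again in the precursors, with Nfkb1 at 0.549 times its flavopiridol level (interval 0.538 to 0.561) and Nfkb2 at 0.603 times (interval 0.574 to 0.632). Nfkbia was at 0.748 times (interval 0.711 to 0.787). Nfkbid was at 1.19 times (interval 1.03 to 1.37) and Nfkbiz at 1.11 times (interval 1.02 to 1.20). Counting intervals lay below 1 for 7 members, where 45.9% of all genes did so, and above 1 for 2, where 14.1% did. The median of all genes in this comparison was -0.21. Rescaling by the median of ratios left Nfkb1 at -0.63 and Nfkb2 at -0.49 on the log2 scale and changed the sign of Rela (-0.21 as deposited, 0.02 rescaled) and of Nfkbie (-0.10 as deposited, 0.13 rescaled).

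A rule of 1.5-fold on the same scale, chosen after the values were seen, was met by 3 members in JQ1+ against DMSO (Nfkb1, Nfkb2 and Nfkbiz), where 18.8% of all genes met it. In flavopiridol against DMSO it was met by Nfkbie alone, with a background of 19.8%, and in JQ1+ against flavopiridol by Nfkb1 and Nfkb2, with a background of 26.5%. Nfkbie in JQ1+ missed it narrowly, with a log2 difference of 0.58. These calls used the deposited RPKM, and which members meet the rule depends on the scaling. After rescaling by the median of ratios, Nfkb1 was at -0.58 and Nfkbie at 0.67 in JQ1+ against DMSO. Nfkbie was then at 0.54 in flavopiridol against DMSO, and Nfkb2 at -0.49 in JQ1+ against flavopiridol.

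The balance of inhibitor to subunit transcripts differed between the libraries, and as a ratio within a library it does not depend on how libraries were scaled. The 5 inhibitors summed to 480 RPKM in JQ1+ and 577 in flavopiridol, against 416 in DMSO. The 5 subunits summed to 731 RPKM in JQ1+ and 1198 in flavopiridol, against 1106 in DMSO. These sums, unlike the ratio, do depend on how libraries were scaled. By the deposited RPKM the subunit sum was lowest in JQ1+. The inhibitor sum was above DMSO with both drugs and was highest in flavopiridol. Inhibitors over subunits came to 0.657 in JQ1+ (interval 0.639 to 0.676) and 0.481 in flavopiridol (interval 0.468 to 0.494), against 0.376 in DMSO (interval 0.365 to 0.387). The JQ1+ ratio was 1.75 times that of DMSO (interval 1.68 to 1.82), and the flavopiridol ratio 1.28 times (interval 1.23 to 1.33). The size of the ratio depends on gene length, and with GENCODE M21 exon lengths it was 1.20 in JQ1+ and 0.919 in flavopiridol, against 0.703 in DMSO. With the deposited RPKM the libraries kept this order without Nfkbia, with 0.298 in JQ1+ and 0.188 in flavopiridol, against 0.153 in DMSO. They kept it without Nfkb1, with 1.63 in JQ1+ and 1.43 in flavopiridol, against 1.01 in DMSO.

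Within the subunits the precursor genes took a smaller share in JQ1+ than in DMSO. Nfkb1 made up 59.6% of the summed subunit RPKM in JQ1+ and 66.3% in flavopiridol, against 63.0% in DMSO. Nfkb2 made up 17.1% in JQ1+ and 17.3% in flavopiridol, against 19.1% in DMSO. Rel, Rela and Relb each took a larger share in JQ1+ than in the other libraries. Rel made up 10.6% in JQ1+ and 8.09% in flavopiridol, against 8.14% in DMSO. The ratio of the 2 precursor genes to the 3 transactivating subunits was 3.30 in JQ1+ and 5.08 in flavopiridol, against 4.58 in DMSO, so that JQ1+ was at 0.721 times DMSO (interval 0.687 to 0.757). The ratio of Nfkb2 to Nfkb1 was 0.287 in JQ1+ and 0.261 in flavopiridol, against 0.303 in DMSO. The ratio of Rel to Rela moved little with JQ1+, at 1.28 against 1.23 in DMSO, and the interval of the change, 0.937 to 1.15, included 1.

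Pairs of an inhibitor and a subunit it is known to bind were also compared. Nfkbie over Rel was 1.46 in JQ1+ and 1.25 in flavopiridol, against 0.835 in DMSO. With GENCODE M21 exon lengths the same ratio was 3.10 in JQ1+ and 2.65 in flavopiridol, against 1.77 in DMSO, so which of the 2 genes is higher in DMSO depends on the length used. Nfkbia over Rela was 4.36 in JQ1+ and 5.03 in flavopiridol, against 3.38 in DMSO.

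**Figure D3:**
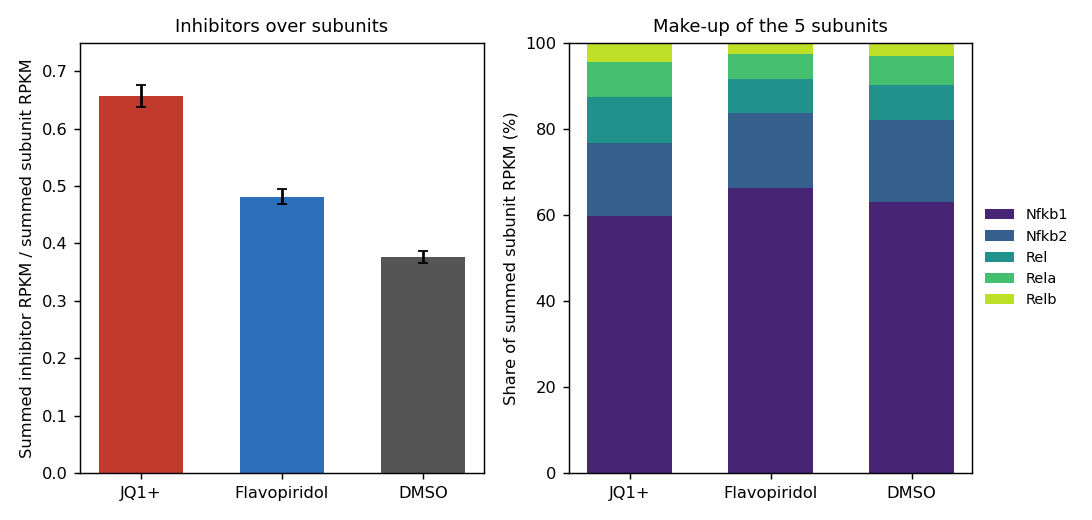
Left, summed inhibitor RPKM over summed subunit RPKM in each library, with bars for the 95% counting interval; right, the percentage of the summed subunit RPKM taken by each subunit. The ratio stands at 0.657 in JQ1+, 0.481 in flavopiridol and 0.376 in DMSO, and Nfkb1 takes more than any other subunit in all 3 libraries.

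Genes of the pathway outside the family were read from 6 lists, which share a few genes. Beside the counts that follow, 7.27% of all genes passed 2-fold with JQ1+ and 6.43% with flavopiridol. Of 19 kinases and ubiquitin ligases, 1 fell and 0 rose with JQ1+, and 0 passed with flavopiridol; the list medians were -0.04 and -0.05. The gene that fell was Birc2, which encodes cIAP1, a ligase that restrains the alternative pathway kinase, with 67.4 RPKM in JQ1+ and 93.7 in flavopiridol, against 144 in DMSO. Rnf31 and Rbck1, subunits of the linear ubiquitin ligase, had log2 differences of -0.68 and -0.64 with JQ1+. Of 20 measured receptors and adaptors, 1 rose with JQ1+ and 0 passed with flavopiridol. The gene that rose was Cd180, a Toll-like receptor relative on B cells, with 62.1 RPKM in JQ1+ and 36.5 in flavopiridol, against 27.4 in DMSO. Malt1, a protease of antigen receptor signalling, had a log2 difference of 0.79 with JQ1+ and 0.47 with flavopiridol. Traf5, a signalling adaptor of the TNF receptor family, stood at 23.4 RPKM in JQ1+ and 13.3 in flavopiridol, against 25.1 in DMSO.

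Feedback inhibitors outside the family had list medians of -0.02 with JQ1+ and -0.01 with flavopiridol over 15 measured genes. With JQ1+ 0 of the 15 passed 2-fold, and with flavopiridol Irak3 fell. Irak3, which damps Toll-like receptor signalling, stood at 13.0 RPKM in JQ1+ and 4.88 in flavopiridol, against 15.3 in DMSO. The A20-binding genes Tnip2 and Tnip1 had log2 differences of -0.59 and 0.09 with JQ1+ and of -0.55 and -0.47 with flavopiridol. Bcl3, a further nuclear IkB protein that binds p50 and p52, stood at 55.2 RPKM in JQ1+ and 39.8 in flavopiridol, against 55.1 in DMSO. Its log2 differences were 0.00 with JQ1+ and -0.46 with flavopiridol, whereas Nfkbid and Nfkbiz, the atypical members above, were positive with both drugs as deposited. For Nfkbid with flavopiridol the counting interval included 1, and the log2 difference after rescaling by the median of ratios was 0.02. The other 2 genes of that short list, Nfkbil1 and Ankrd33b, had log2 differences with JQ1+ of -0.56 and -0.85. Of 13 nuclear cofactors of RelA, 0 passed with either drug, and the list medians were 0.07 with JQ1+ and 0.09 with flavopiridol. Cdk9 had log2 differences of -0.13 with JQ1+ and -0.26 with flavopiridol. With JQ1+, Brd3, a BET gene, had a log2 difference of -0.63, and Sirt1, a deacetylase of RelA, one of 0.45.

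Known targets of NF-kB spread far more widely than the family. Of 33 measured target genes outside the family, 3 rose and 11 fell with JQ1+, where 1.98% and 5.29% of all genes did, and the list median was -0.44. With flavopiridol 4 rose and 3 fell, where 3.55% and 2.88% of all genes did, and the median was 0.05. The 3 with the largest differences were Slpi, Il6 and Ccl3. Slpi, a secreted protease inhibitor, stood at 2.34 RPKM in JQ1+ and 10.7 in flavopiridol, against 168 in DMSO. Il6, an inflammatory cytokine gene, stood at 2.56 RPKM in JQ1+ and 29.2 in flavopiridol, against 47.8 in DMSO. Nfkbiz, described above, had its highest value in JQ1+, and any link between it and Il6 in these cells was not tested. Ccl3, a chemokine gene, stood at 96.0 RPKM in JQ1+ and 53.2 in flavopiridol, against 8.62 in DMSO. These lists were drawn up with earlier results of these data known. Their counts and ranges therefore describe the libraries and are no independent evidence of a direction or a spread.

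**Figure D4:**
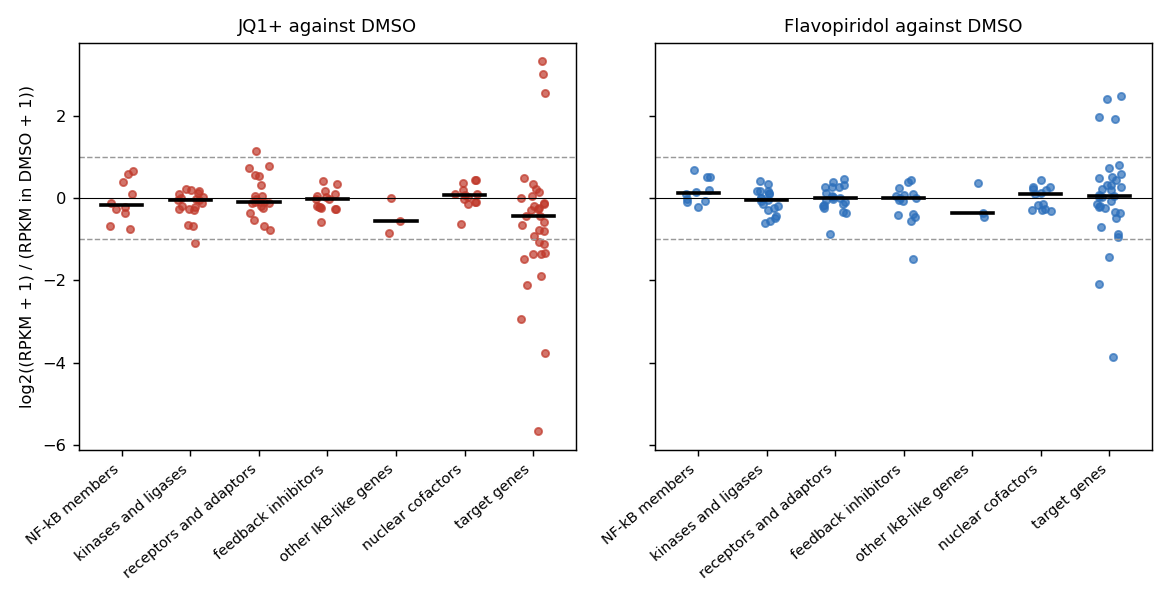
Log2 difference from DMSO, with a pseudocount of 1 RPKM, of the 10 members and of each measured gene of 6 pathway lists, JQ1+ on the left and flavopiridol on the right; black bars are medians and dashed lines mark 2-fold. The members lie between -0.75 and 0.68, whereas the target genes reach from -5.66 to 3.33.

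Genes that differed most like a member were looked for over the 3 libraries, as the shortest distance in the pair of log2 differences from DMSO among 9323 protein-coding genes whose mean reached 5 RPKM. Nearest to Nfkbie (0.58 with JQ1+ and 0.68 with flavopiridol) were Mtch1, Fgl2 and Bpgm. Nearest to Nfkbiz (0.65 and 0.51) were Pdia4, Fam43a and Akr7a5, of which Pdia4, a disulfide isomerase of the endoplasmic reticulum, had 0.66 and 0.51. Nearest to Nfkb2 (-0.75 and -0.03) were Serhl, Enox2 and Rps4y2. With only 2 differences to match, 17 genes lay within a distance of 0.1 of Nfkbie, 22 of Nfkbiz and 32 of Nfkb2.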

How the data were processed

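Total RNA from 3 cultures of stimulated CD43- mouse splenic B cells was depleted of ribosomal RNA with Ribo-Zero, per the labels' protocols, which keeps RNA without a poly(A) tail. Each library has a table of 33700 genes, and tables were joined on the gene identifier. Per the file headers, 1 column holds counts, which are whole and were not normalised. Per the file headers, a second column holds RPKM, scaled by the authors to length and library size. The build mm9 is named in the submitters' processing notes. Not given in the sources used here are the aligner, the counting program, the annotation and the use of strand.

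For 94 symbols with several rows the highest row was used. Differences were log2((RPKM + 1)/(RPKM + 1)), which understates changes of low genes. The total behind the RPKM was found from genes whose GENCODE M21 exon length matched within 0.1% (44.2% to 44.8% of well-counted genes). Counts summed to 2.72, 2.92 and 2.84 times that total in JQ1+, flavopiridol and DMSO, so counts were divided by those factors before exact conditional binomial 95% intervals were formed. Intervals of shares and of sums used the delta method on the same counts. All cover counting error only. The calculation was tested on simulated data. Python 3.11.15, pandas 2.3.3 and scipy 1.17.1 were used.

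Members and lists were chosen with earlier results of these data known. All members were named, with the 3 largest differences of each list and with Bcl3 and Cdk9, except for a few that are not reported here. Alternatives were other pseudocounts, scalings, filters, lengths and a 1.5-fold rule.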

Additional observations from a re-analysis of the deposited data

How the results depend on the processing

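The count of 0 members past 2-fold held in all 3 comparisons with pseudocounts of 0.1 and 5 RPKM, with rescaling by the median of ratios, with counts scaled by their library sum, with a minimum mean of 5 RPKM and with no filter. The 1.5-fold rule was added after the values were seen. On the deposited RPKM it gave 3 members in JQ1+ against DMSO, 1 in flavopiridol against DMSO and 2 in JQ1+ against flavopiridol. Of 30 member differences, 27 kept their sign after rescaling by the median of ratios. With counts scaled by their library sum 29 kept it, and Nfkbie in JQ1+ against flavopiridol became 0.00. Both pseudocounts kept the sign of all 30. A kept sign is not a kept size. By the median of ratios, Nfkb1 in JQ1+ against flavopiridol went from -0.86 to -0.63. The count of pathway genes past 2-fold stayed within 1.5 times its value in these settings, the 1.5-fold rule aside, which was not run on it. The share of all genes past 2-fold ranged from 3.02% to 11.1% in JQ1+ against DMSO, 2.18% to 9.95% in flavopiridol against DMSO and 2.97% to 13.2% in JQ1+ against flavopiridol. Rescaling by the median of ratios put the lower share of these genes in flavopiridol against DMSO at 58.2%, against 44.8% as deposited, and in JQ1+ against flavopiridol at 57.3%, against 77.0%.

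Levels set between genes depended on length. From counts not scaled to length, inhibitors over subunits came to 0.343 in JQ1+ and 0.232 in flavopiridol, against 0.183 in DMSO. With GENCODE M21 exon lengths, added later, the ratio was 1.20 in JQ1+ and 0.919 in flavopiridol, against 0.703 in DMSO, and the Nfkb1 share was 45.9% in JQ1+ and 53.2% in flavopiridol, against 49.3% in DMSO. The order of the libraries in both measures was the same as with the deposited RPKM. By counts, Nfkb1 took 69.5% of subunits in JQ1+ and 75.1% in flavopiridol, against 72.2% in DMSO. Nfkb2 took 13.7% in JQ1+ and 13.5% in flavopiridol, against 15.0% in DMSO, so JQ1+ and flavopiridol changed places there. Rel took 7.18% in JQ1+ and 5.35% in flavopiridol, against 5.45% in DMSO. Rela took 5.44% in JQ1+ and 3.74% in flavopiridol, against 4.29% in DMSO. Relb took 2.33% in flavopiridol, against 2.98% in DMSO. With undivided counts the intervals of Relb in JQ1+ against DMSO and against flavopiridol, and of Nfkbid in flavopiridol against DMSO, no longer included 1. No leave-one-out was possible with 1 library a group. No paired analysis was possible because each group has 1 library and no test was run.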

Other observations

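The make-up of the inhibitors also differed between the libraries. Nfkbia took 54.7% of the summed inhibitor RPKM in JQ1+ (interval 53.5% to 55.9%) and 60.9% in flavopiridol, against 59.3% in DMSO. Nfkbie took 23.5% in JQ1+ and 20.98% in flavopiridol, against 18.1% in DMSO. Nfkbib took 7.84% in JQ1+ and 7.91% in flavopiridol, against 11.7% in DMSO. Nfkbiz took 8.12% in JQ1+ and 6.11% in flavopiridol, against 5.88% in DMSO. The ratio of Nfkbie to Nfkbia was 0.430 in JQ1+ and 0.345 in flavopiridol, against 0.305 in DMSO, and JQ1+ was at 1.41 times DMSO (interval 1.29 to 1.54). These intervals cover counting error only, and no replicate bears on them.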
